A study of Mus musculus with 3 samples.

Results

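The microRNAs described here are those named for striated muscle, that is heart and skeletal muscle, as they appeared in small RNA libraries made from mouse primary smooth muscle cells of the aorta (AoSMC). They were chosen by a rule on names and not on read values, though with earlier results of these data known. They comprise 9 name stems, mmu-miR-1a, mmu-miR-1b, mmu-miR-133a, mmu-miR-133b, mmu-miR-133c, mmu-miR-206, mmu-miR-208a, mmu-miR-208b and mmu-miR-499, at 11 annotated hairpins. The prefix mmu stands for mouse and is dropped below. Of the 21 windows in which the authors counted reads of these microRNAs (miRs), 12 had a row in the read table, among 1295 miR windows in all. The remaining 9 windows, which include those of miR-133c and miR-208a, had no row and were taken as 0 reads. Each listed miR window had a partner window for the microRNA-offset RNA (moR), the short RNA that lies beside the miR on the outer side of the hairpin arm.

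The series held 1 group of 3 AoSMC libraries from C57BL/6 mice, with no treatment and no second cell type. The cells grew out of pieces of several mouse aortas, cleaned of adventitia, and were harvested near confluence in medium with serum, so they represent cultured cells and not the vessel wall. The labels call the libraries biological replicates without saying whether they came from separate cultures. A p-value over them therefore reflects no more than the spread of these samples, possibly a technical one. The libraries held between 15123616 and 18636286 mapped reads, of which 73.1% to 83.0% fell in miR and moR windows. Levels are given in RPMR, reads per 1000000 reads in these windows, where 1 read equalled 0.0734, 0.0797 and 0.0659 RPMR in replicates 1, 2 and 3. The smooth muscle microRNAs miR-143-3p, at 50855 ± 4963 RPMR, and miR-145a-5p, at 1195 ± 258 RPMR (SD, n = 3), ranked 2 and 49 among the mature miRs. Every pair of libraries differed by more than sampling noise, since the chi-square statistic of their miR reads divided by its degrees of freedom lay between 42.8 and 332. The correlation of their log2 levels was 0.993 to 0.995. Neither value can tell separate cultures from separate preparations of 1 culture. The 3 libraries were counted as separate samples because the labels call them replicates.

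As background, miR-1, miR-133 and miR-206 are transcribed under the muscle regulatory factors MyoD, myogenin and Mef2 and, in the case of miR-1 and miR-133, serum response factor. Hairpins of miR-1 and miR-133 lie next to each other and share a transcript, and miR-206 and miR-133b form a like pair. miR-1 promotes differentiation of muscle precursors and miR-133 is known to favour their proliferation. miR-206, which carries the seed of miR-1, is the member most restricted to skeletal muscle, where it aids differentiation and the repair of nerve-muscle synapses. miR-208a, miR-208b and miR-499 are encoded within introns of myosin heavy chain genes and take part in the choice of myosin isoform in heart and slow muscle. A mature miR recognises its targets mainly through the seed, the bases near its 5′ end.

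The mature sequences of the arms in question are shown because they decide which reads can be told apart. They are given 5′ to 3′ from RefSeq (GRCm38.p6, the assembly of mm10) with the seed, bases 2 to 8, in capitals.
miR-206-3p: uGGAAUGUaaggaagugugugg
miR-206-5p: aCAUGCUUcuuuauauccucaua
miR-133b-3p: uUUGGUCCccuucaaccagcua
miR-499-5p: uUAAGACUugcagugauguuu
miR-208a-3p: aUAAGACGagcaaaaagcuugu
miR-208b-3p: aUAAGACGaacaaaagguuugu
miR-208a-3p and miR-208b-3p carried the same seed and were identical at 19 of 22 positions. The seed of miR-499-5p matched theirs over its first 6 bases. In the RefSeq table the seed of miR-206-3p was also carried by miR-6349 and miR-6382, neither of which had a read in any library. The mature sequences of miR-1a-3p, miR-1b, miR-133a and miR-133c were not used here, so miR-1, whose seed is that of miR-206, does not enter the comparisons of sequence. The longest run of bases that miR-206-3p shared with any of the 1678 other mature names compared, miR-1a-3p and miR-1b not among them, was 11 bases, with miR-3097-5p, and the shortest insert the authors mapped was 14 bases without a mismatch. All read values of the miR-206 windows were whole numbers, within 1e-06. A whole value can still hold split reads, as at miR-1a-3p in replicate 2, and no such part was visible at miR-206.

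miR-206 was the only striated muscle microRNA with a substantial level. miR-206-3p had 1583, 1882 and 2258 reads in replicates 1, 2 and 3, which gave 116, 150.0 and 149 RPMR and a mean of 138 ± 19.2 RPMR (SD, n = 3). The 95% exact Clopper-Pearson interval was 110 to 122 RPMR in replicate 1, 143 to 157 RPMR in replicate 2 and 143 to 155 RPMR in replicate 3. Replicate 1 was thus lower than the other replicates by more than counting error, while replicates 2 and 3 overlapped. miR-206-3p alone made up 98.8% of the 5790 reads of the striated muscle microRNAs, counting each read once. It held 0.0138% of all window reads.

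**Figure D1:**
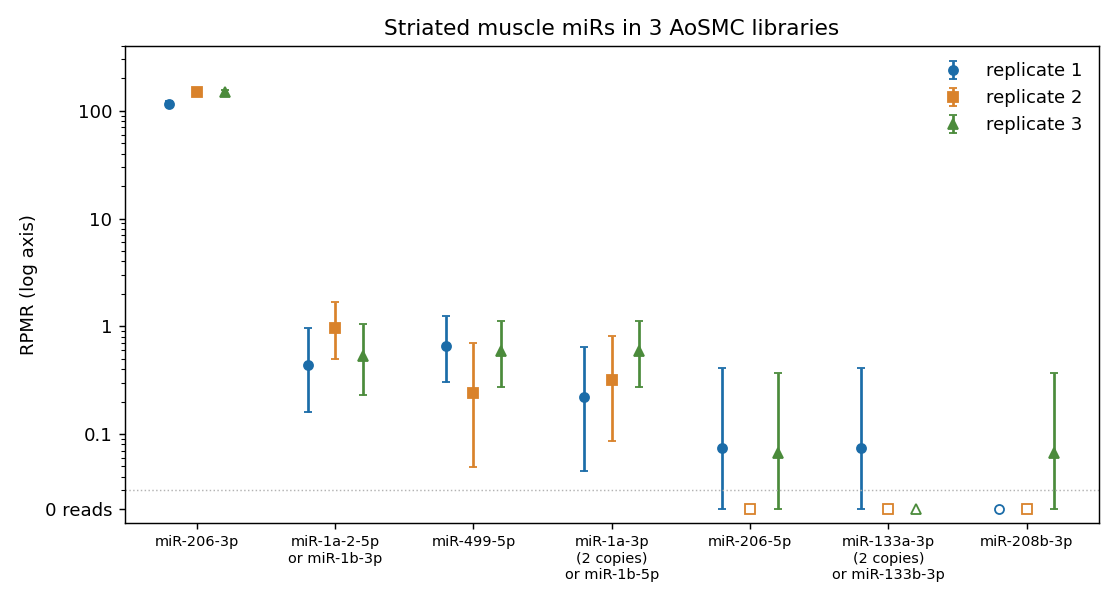
Level of each striated muscle miR in RPMR on a log axis, 1 point per library, with bars for the 95% exact interval of the reads; open symbols mark 0 reads, and names joined by "or" shared their reads. The 3 points of miR-206-3p lie between 116 and 150.0 RPMR, and no point of another member exceeds 0.956 RPMR.

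In mm10 the Mir206 hairpin spans positions 20679010 to 20679082 on the plus strand of chromosome 1, where it overlaps an exon of Gm28653, a long noncoding RNA gene of that strand. The mature miR-206-3p covers 20679055 to 20679076. The hairpin is shown because nearly all of its reads came from one arm, with miR-206-5p first and miR-206-3p second in capitals.
Mir206 hairpin: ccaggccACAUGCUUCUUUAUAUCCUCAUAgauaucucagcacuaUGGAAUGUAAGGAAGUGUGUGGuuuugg
miR-206-5p had 1, 0 and 1 reads in the 3 libraries, against 1583, 1882 and 2258 reads of miR-206-3p. The 5p arm thus gave 0.0349% of the miR reads of the hairpin, with a 95% exact interval from 0.00423% to 0.126%. The log2 fold change of 5p over 3p was -11.23 ± 0.34 (SE), with an adjusted p of 7.1e-15 over 483 hairpins in edgeR's quasi-likelihood fit, which blocked on library. A difference between the arms was common, since 90.1% of all hairpins tested were called, 43.7% with more 5p and 46.4% with more 3p. By size, 31 of the 483 hairpins had a fitted difference at least as large as that of Mir206, itself included. In this test an arm without a row entered as 0 reads, whether or not a window for it existed. For a hairpin without a second window the direction was fixed in advance, and these shares and counts may include such hairpins. They do include hairpins with 0 reads on 1 arm in every library, whose fitted size rests on those zeros. Examples are Mir484, at a log2 fold change of 16.11, and Mir92-2, at -16.56. Mir21a, at 12.51, had reads on both arms. The place of Mir206 by size is therefore partly against arms without a read.

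Among 1230 mature names listed, of which 1080 had a read, miR-206-3p ranked 127 by mean level and 134, 123 and 127 in replicates 1, 2 and 3. Its level exceeded that of 88.2% of the names with a read, whose median was 0.494 RPMR. It was nevertheless below the listed smooth muscle microRNAs, by a margin that depended on the arm. For each read of miR-206-3p there were 376 ± 93.6 reads of miR-143-3p and 8.95 ± 3.35 reads of miR-145a-5p (SD, n = 3). Their other arms, miR-143-5p and miR-145a-3p, were 1.79 ± 0.128 and 8.11 ± 1.87 times as high as miR-206-3p (SD, n = 3). miR-21a-5p, the most abundant miR of these cells, was 3778 ± 383 times as high (SD, n = 3). Of the 10 mature names of striated muscle with a row, 1 was above 1 RPMR, and 37.8% of all listed names were.

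**Figure D2:**
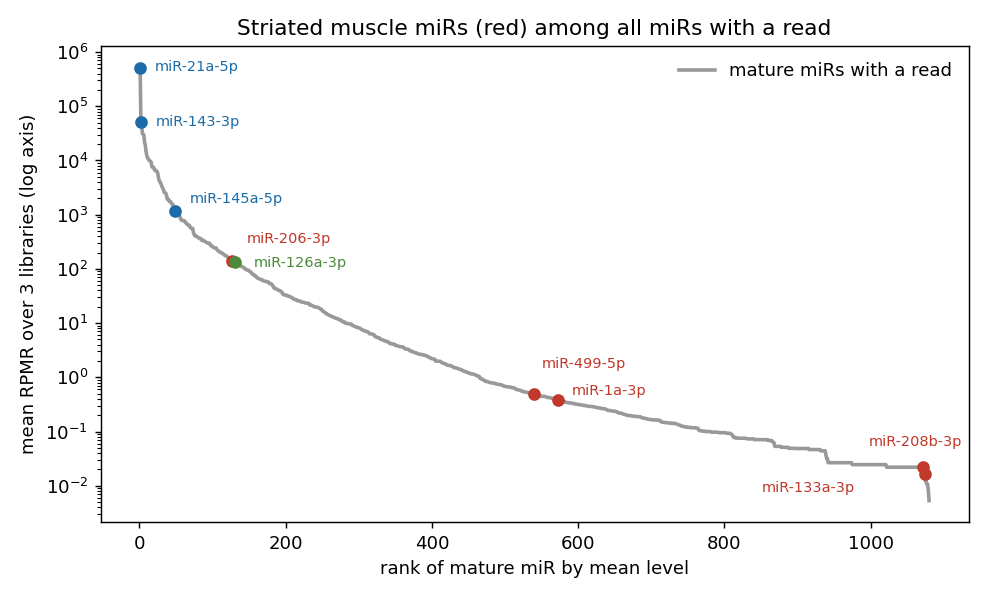
Mean RPMR over 3 libraries on a log axis against rank for the 1080 mature miRs with a read, with striated muscle miRs in red, miR-21a-5p and the smooth muscle miRs in blue and the endothelial miR-126a-3p in green. miR-206-3p stands at rank 127 and 138 RPMR, and miR-499-5p, the next of the 5 red points, at rank 540; miR-206-5p, miR-1a-2-5p, miR-133b-3p and both miR-1b arms are not drawn.

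The names nearest to miR-206-3p in level over the 3 libraries were miR-126a-3p, miR-126b-5p and miR-16-1-3p. miR-126a-3p, the microRNA of endothelial cells, which line the vessel, was at 115, 147 and 144 RPMR in replicates 1, 2 and 3, and its mean absolute log2 difference from miR-206-3p was 0.027. miR-126b-5p was at 114, 146 and 143 RPMR and miR-16-1-3p at 125, 137 and 146 RPMR, with mean absolute log2 differences of 0.043 and 0.087. miR-126a-3p and miR-126b-5p lie on opposite strands of 1 locus, and with 1569, 1849 and 2192 reads of Mir126a 3p and 1548, 1834 and 2169 reads of Mir126b 5p they counted nearly the same reads, so they are not independent neighbours. All of these were lowest in replicate 1, which was also so for 90 of the 224 names with at least 1000 reads. The log2 ratio of replicate 1 over the mean of the others was -0.36 for miR-206-3p and had a median of 0.01 over the 224 names, of which 35 had a lower value. The coefficient of variation of miR-206-3p was 13.9%, against a median of 12.3%. A likeness over 3 libraries is a description only. The endothelial list held miR-126a alone, whose arms summed to 125 to 158 RPMR in the libraries, and the part of endothelial cells in the level of miR-206 was not tested.

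miR-133b, the genomic neighbour of miR-206, was nearly unseen. Mir133b lies 3′ of Mir206 from 20682769 to 20682887 on the same strand and also overlaps an exon of Gm28653. miR-133b-3p had 0.333, 0 and 0 reads, and miR-133b-5p had no row. The 0.333 is a part of 1 read in replicate 1 that the authors split evenly over Mir133b and both Mir133a hairpins, as each of the 3 loci received the same value. Even with this read given wholly to miR-133b-3p, there were 5723 reads of miR-206-3p for 1 read of miR-133b-3p over the 3 libraries (95% exact interval of the ratio 1027 to 226085). In replicates 2 and 3, where miR-133b-3p had 0 reads, miR-206-3p was at least 627-fold and 753-fold higher against a floor of 3 reads per library. miR-206-3p was higher in 3 of 3 libraries, for which exact permutation of the signs, two-sided, cannot give a p below 0.25, the value obtained. The authors' even split and their limit of 5 loci apply to miR-133 reads, and reads with a mismatch were dropped at every locus.

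The miR-133a hairpins lie on chromosomes 2 (Mir133a-2, from 180398379 to 180398482, in no other annotated gene) and 18 (Mir133a-1, in an intron of Mir133a-1hg on the same strand and of Mib1 on the opposite one, as is Mir1a-2). Besides the shared read, neither miR-133a-3p nor miR-133a-5p had a read at either locus. miR-133c, whose hairpin lies on chromosome 2 from 29475215 to 29475294, opposite an intron of Med27, had none. Where a window had 0 reads, this count allows up to 3 reads, or 0.220, 0.239 and 0.198 RPMR in replicates 1, 2 and 3.

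miR-1 was present at low read numbers. miR-1a-3p had 1.5, 2 and 4.5 reads at its chromosome 2 locus, Mir1a-1, from 180389048 to 180389124, and exactly the same values at its chromosome 18 locus, Mir1a-2. The equal values come from the even split, so the copies were not measured separately and together held 3, 4 and 9 reads, a mean of 0.377 ± 0.193 RPMR (SD, n = 3). miR-1b-5p, in the window of the opposite strand at the chromosome 18 locus, also had 1.5, 2 and 4.5 reads. Reads of miR-1a-3p and miR-1b-5p therefore cannot be told apart in the table. For each read of miR-1a-3p there were 358 reads of miR-206-3p over the 3 libraries (95% exact interval 220.1 to 626).

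The other arm at that chromosome 18 locus had more reads in the values as deposited, in which the reads of miR-1a-3p were split. miR-1a-2-5p and, on the opposite strand, miR-1b-3p each had 6, 12 and 8 reads, which equals 0.641 ± 0.276 RPMR (SD, n = 3). The values of miR-1a-2-5p and miR-1b-3p were the same in every library, so these reads were counted in both windows. The matching arm of Mir1a-1, miR-1a-1-5p, had no row. By edgeR's quasi-likelihood test the arms of Mir1a-2 differed, with a log2 fold change of 5p over 3p of 1.49 ± 0.53 (SE, adjusted p = 0.015), and those of Mir1b differed by the same amount in the other direction, because the same reads enter both. The 3p reads of Mir1a-2 in this test were the split ones, rounded to 2, 2 and 5. With the split reads counted whole, 26 reads stood against 16, a ratio of 1.63 with a 95% exact interval from 0.839 to 3.24, and the larger side was not the same in all libraries, with 6 against 3 reads in replicate 1, 12 against 4 in replicate 2 and 8 against 9 in replicate 3. With DESeq2 the adjusted p of both hairpins was 0.11, without replicate 1 it was 0.065 and without replicate 2 it was 0.14 by edgeR, and with TMM factors it was 0.17 for Mir1a-2 and 9.3e-05 for Mir1b. The log2 fold change of Mir1a-2 was 1.57 with DESeq2, 1.48 without replicate 1, 0.98 without replicate 2 and 0.80 with TMM factors, so its direction was kept while the call depended on the fit and on how the split reads were counted.

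**Figure D3:**
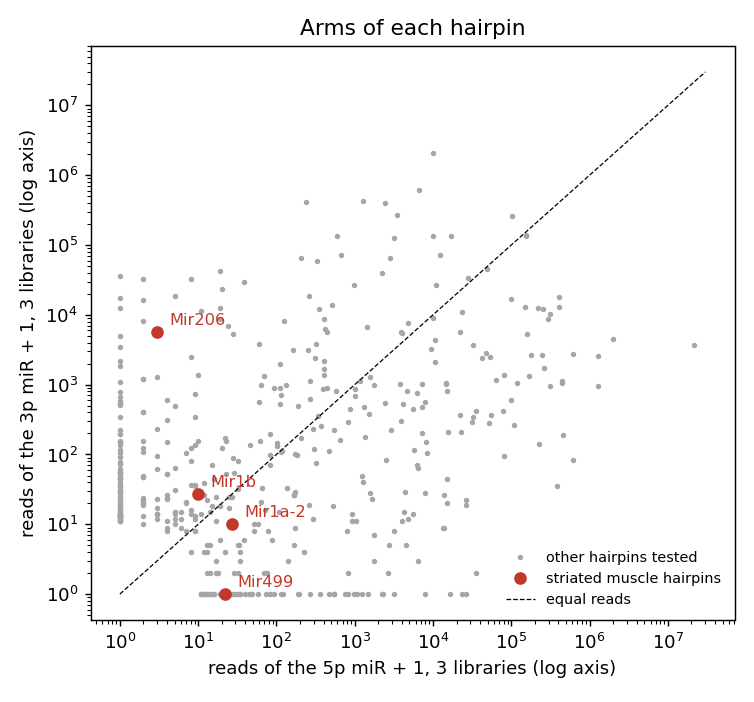
Reads of the 5p miR against reads of the 3p miR of each tested hairpin, summed over 3 libraries with 1 added, on log axes; the dashed line marks equal reads. Mir206 lies far to the 3p side with 2 against 5723 reads, Mir499 to the 5p side with 21 against 0, and Mir1a-2 and Mir1b mirror each other near the line because they share reads.

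Of the microRNAs within myosin genes, miR-499-5p was the highest. It had 9, 3 and 9 reads, a mean of 0.497 ± 0.226 RPMR (SD, n = 3), and ranked 540 by mean level. Mir499 lies on chromosome 2 from 155622880 to 155622958 in an intron of Myh7b. miR-499-3p had no row, and the 5p arm was at least 7-fold higher over the 3 libraries against a floor of 3 reads (edgeR log2 fold change of 5p over 3p 5.83 ± 1.16, SE, adjusted p = 0.00031). miR-208b-3p had a single read, in replicate 3. It comes from Mir208b on chromosome 14, from 54975700 to 54975776, in an intron of Myh7, the gene of the slow myosin heavy chain. miR-208b-5p and both arms of miR-208a, from an intron of Myh6 on chromosome 14, had no row. Neither miR-208 reached the limit of 3 reads in any library.

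Among the members below miR-206-3p the order was the shared reads of miR-1a-2-5p and miR-1b-3p at 0.641 RPMR, miR-499-5p at 0.497 RPMR, the reads of miR-1a-3p at 0.377 RPMR, miR-206-5p at 0.0464 RPMR, the shared miR-133 read at 0.0245 RPMR and miR-208b-3p at 0.0220 RPMR. The first 3 of these overlapped in their library values and did not differ beyond their spread. The last 3 each rested on 1 or 2 reads and have no reliable order. All members other than miR-206-3p together had 20, 19 and 28 reads, or 1.61 ± 0.206 RPMR (SD, n = 3).

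A single read fell in the moR windows of this set. Of 12 moR windows, 1 had a read, that of moR-206-3p with 0, 1 and 0 reads in replicates 1, 2 and 3, against 1583, 1882 and 2258 reads of miR-206-3p. The 11 others, moR-206-5p among them, had 0 reads. Those 11 lie beside miR windows with 26 reads or fewer over the 3 libraries. The share of all listed moR windows with a read was not computed, so this count is not read as a trait of the set. Of 30 other 3p arms whose miR had between 0.5 and 2 times the reads of miR-206-3p, 14 had at least 1 moR read, with a median of 0 and a maximum of 233 reads. A single moR read beside 5723 miR reads therefore lay within the range of comparable arms.

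Marker microRNAs of other cell types give a scale for these levels. With arms summed by name, 2 of the 9 striated muscle names were above 1 RPMR, miR-206 and miR-1a, the last at 1.02 ± 0.320 RPMR (SD, n = 3) with the reads it shared with miR-1b included. The members other than miR-206-3p summed to 1.47 to 1.85 RPMR in the libraries, close to the range of the liver microRNA miR-122, which was 1.54 to 1.75 RPMR. The blood list summed to 0.880 to 1.45 RPMR, with each of its 5 microRNAs below 1 RPMR. The epithelial list of 6 summed to 7.73 to 8.29 RPMR and had 3 above 1 RPMR. The neuron list of 3 summed to 13.9 to 14.4 RPMR, nearly all of it miR-9, with miR-137 at 0. The list of 3 labelled pancreatic islet summed to 32.1 to 37.8 RPMR, with miR-375 at 0. All of that sum came from miR-216a, at 10.2 RPMR, and miR-217, at 25.7 RPMR, which are not markers of islets alone. None of the names in these 5 lists reached the level of miR-206-3p. The endothelial miR-126a did, with arms summed, at 146 ± 18.2 RPMR against 138 ± 19.2 RPMR for miR-206-3p (SD, n = 3). The smooth muscle list, miR-143 and miR-145a, summed to 48742 to 59042 RPMR. Whether any of these cell types contributed to the striated muscle reads was not tested.

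**Figure D4:**
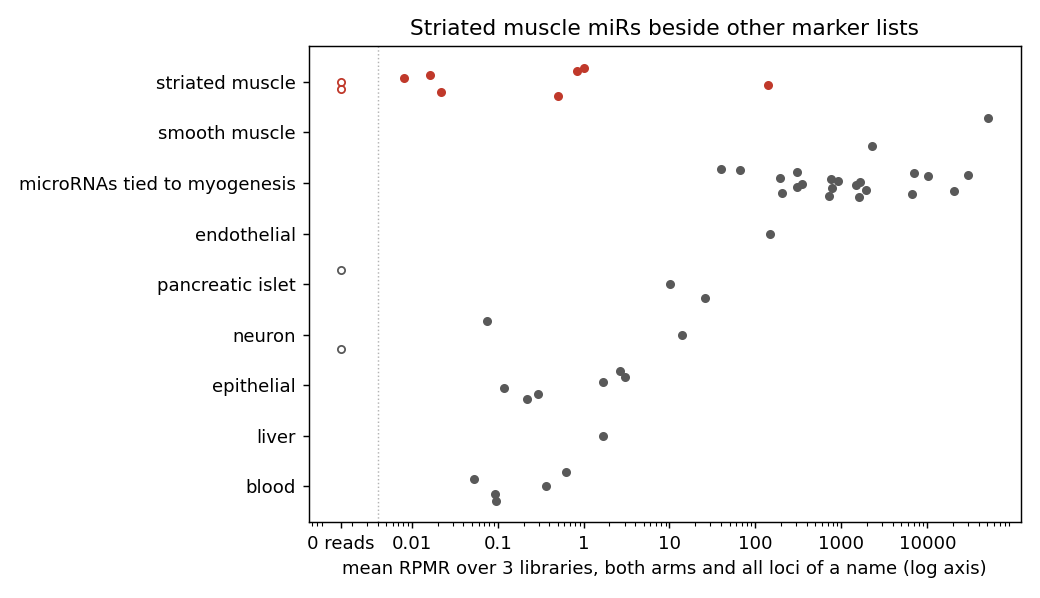
Mean RPMR over 3 libraries on a log axis for each microRNA name of 9 lists, with both arms and all loci summed; open circles mark 0 reads. In the striated muscle list 1 of 9 names, miR-206, lies above 100 RPMR, and 2, miR-133c and miR-208a, had 0 reads.

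The listed microRNAs that act in muscle differentiation but are not confined to muscle were abundant. This list was drawn up with earlier results of these data known, so its levels are a description only. All 20 names of that list, with arms summed, were above 1 RPMR and 18 were above miR-206-3p, with a median of 852 RPMR. Among all 1230 mature names, arms kept apart, 37.8% were above 1 RPMR and miR-206-3p ranked 127. The highest of the list was miR-26a, which acts in myogenesis through Ezh2, at 29829 ± 5748 RPMR (SD, n = 3), and miR-125b stood at 20299 ± 3394 RPMR. miR-221 and miR-222, which fall as skeletal muscle cells differentiate and favour proliferation of smooth muscle, were at 1643 ± 177 and 346 ± 58.3 RPMR (SD, n = 3). miR-322 and miR-503, which slow the cell cycle in muscle precursors, were at 1485 ± 288 and 304 ± 46.6 RPMR (SD, n = 3). The only names of the list below miR-206-3p were miR-486a, at 39.7 ± 15.6 RPMR, and miR-486b, at 65.6 ± 14.3 RPMR (SD, n = 3), which are enriched in skeletal muscle and red blood cells. Their hairpins, Mir486 at its 5p arm and Mir3107 at its 3p arm, held equal reads of 217, 177 and 602 in replicates 1, 2 and 3. These names are therefore not independent, and both were highest in replicate 3. In the arm test, 11 of the 25 hairpins of this list had more 5p and 12 more 3p, and 2 were not called by edgeR. Over all 483 hairpins tested, 90.1% were called, 43.7% with more 5p and 46.4% with more 3p, so the list was near that share. The median absolute log2 fold change of the list was 4.92, against 5.04 over all hairpins tested.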

How the data were processed

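The series held small RNA libraries of 3 AoSMC replicates, prepared with a small RNA kit and read as single reads. The authors removed adaptors and mapped inserts longer than 13 bases to mm10 with Bowtie (its version is not given in the sources used here), without mismatches and at no more than 5 places. The deposited raw values are expected counts of reads in each window, since reads near several hairpins were split evenly. A second deposited set is in RPMR, an RPM unit counted per 1000000 reads in the miR and moR windows together. A miR window spans the miRBase coordinates widened by 3 bp. RPMR recomputed from the counts came within 7.3e-12 of the authors' values. The counts appear not to keep strands apart, since the opposite windows of Mir1a-2 and Mir1b held equal values and those of Mir126a and Mir126b nearly equal ones. Mature levels sum all loci of a name. Window totals came from the deposited notes, and each column's sample number was taken as the replicate number in the labels.

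Windows were placed on hairpins and genes with GENCODE M21, of the same build. Of the sequences named, 6 mature ones and 1 hairpin were read from RefSeq. Arms were tested with edgeR 4.0.16 (R 4.3.3) on counts rounded to whole numbers, with at least 10 reads per hairpin, window totals as library size, the library as block, and Benjamini-Hochberg adjusted p under 0.05 called. The block follows from the design, as both arms come from 1 library. The SE is the log2 fold change divided by the root of the F statistic. On simulated data over 483 hairpins, 82.7% of those changed 4-fold, 100% of those changed 16-fold and 1 of 322 unchanged ones were called. The simulation started both arms from the mean of the real reads, with a fixed spread and no differences between libraries. It held no split or shared reads, so these rates need not hold for the real reads. Other values used Python 3.11.15, SciPy 1.17.1, pandas 2.3.3 and numpy 2.4.6, and figures used matplotlib 3.10.9. Intervals and floors cover counting error only, as reads carried no molecular identifiers. Alternatives were DESeq2 1.42.0, TMM factors, other read minimums, no block, other denominators and leaving out each replicate. Named items are all members, miR-143, miR-145a and miR-21a as references, the 3 names nearest in level to miR-206-3p, and the highest or lowest of the lists. miR-125b, miR-221, miR-222, miR-322, miR-503, Mir484, Mir92-2 and named markers were singled out after their values were seen. Members and lists were chosen with earlier results of these data known.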

Additional observations from a re-analysis of the deposited data

How the results depend on the processing

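The direction and call of the arm difference at Mir206 and Mir499 were the same in every fit that included them. For Mir499 the 3p arm entered each of these fits as 0 reads, so its direction could not change. With 21 reads, Mir499 was not tested when at least 30 reads were required. Mir1a-2 and Mir1b kept their direction in every alternative run, and the alternatives under which they lost their call are given above. Hairpins called numbered 435 of 483, 342 of 368 with at least 30 reads, 423 of 734 without a filter beyond 1 read, where the share called was lower, and between 395 and 447 under DESeq2, TMM factors and no replicate block (439). Leaving out a replicate gave 380 to 387 of 432 to 447. The summed level of the striated muscle miRs, 141 RPMR with windows as deposited, depends on its denominator: it was 112 per 1000000 mapped reads and 294 per 1000000 window reads without miR-21a-5p. Without a replicate it was 135 to 152 RPMR, with each read counted once 139.9 RPMR, and with miR-206-3p left out but windows as deposited 2.44 RPMR, the last 2 chosen after seeing the data. The 2.44 RPMR counts reads shared by opposite windows more than once, and with each read counted once it was 1.61 RPMR. The reads of miR-206-3p per read of miR-133b-3p were between 1380, a lower bound, and 3841 without a replicate. A mean of library ratios could not be formed, since 2 libraries had 0 reads of miR-133b-3p, so the summed reads were used. Depth limits every member but miR-206-3p, as each rested on 26 reads or fewer over the 3 libraries.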
